A study of Mus musculus with 9 samples.

Results

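Hair follicles (HF) were compared with interfollicular epidermis (IFE), the sheet of epithelium between the follicles, in the skin of the mouse tail. The comparison used 6 of the 9 arrays of the series, the 3 samples titled hair follicles and the 3 titled interfollicular epidermis, and covered 14507 genes. Both groups were tail epidermis of adult wild-type females on a C57BL6/CBA background, with ages and sexes matched, and the labels name no treatment and no transgene for either. Each sample pooled pieces dissected by hand, so a follicle sample can hold shaft, sheaths, stem cell regions and upper follicle together, and an IFE sample basal and cornifying layers. The other 3 arrays are sebaceous glands (SG) of the same skin. They share in the estimate of the spread and serve here for values set beside those of HF. In such bulk samples, fewer cells of a type and less RNA per cell cannot be told apart. The p-values measure the spread between pooled dissections that the labels call biological replicates, and the number of arrays limits their precision. The median SE over all genes was 0.207.

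The array names in the sample descriptions gave another compartment than the titles for 9 of 9 arrays. Those titled HF carried names of IFE, those titled IFE names of SG, and those titled SG names of HF. Groups followed the titles, and the defining markers were set against them. The summed signal of 7 keratin and trichohyalin-like genes of the inner root sheath and companion layer was 20890 to 39250 on the arrays titled HF, 585 to 759 on those titled IFE and 1151 to 10100 on those titled SG. That of 7 late cornified envelope genes was 7298 to 9114 on the arrays titled IFE, with a highest value of 2597 elsewhere, and the summed sebocyte markers were 30570 to 42590 on the arrays titled SG, with a highest value of 11520 elsewhere. HF replicate 2 stood apart from HF replicates 1 and 3. Its root sheath sum was 20890 against 37310 and 39250, its late envelope sum 2597 against 1261 and 1290, its sum over 5 Skint genes 618 against 142 and 191, and its sebocyte sum 11520 against 7064 and 7418. SG replicate 3 had a higher root sheath sum (10100) than the other SG arrays (1151 and 1720), which widens the shared estimate of the spread for hair genes.

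The hair follicle is an epithelial tube that makes the hair. Matrix cells at its base differentiate into the shaft, packed with hair keratins cross-linked by keratin-associated proteins, and into the inner root sheath, which has keratins of its own and moulds the shaft. Stem cells sit in the bulge and hair germ, and the upper follicle, with the infundibulum and the duct of the sebaceous gland, opens to the skin surface. The IFE instead renews a flat barrier, in which basal cells move up, switch keratins and end as cornified cells with a cross-linked protein envelope and a lipid seal. In tail skin the IFE alternates between scales, which lie between groups of follicles, and interscale zones around the follicle openings.

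Of the 14507 genes, 916 (6.31%) were called in the fit with limma, that is, passed 0.05 after Benjamini-Hochberg adjustment and differed by at least 1 on the log2 scale. In HF, 429 genes (2.96%) were higher and 487 (3.36%) lower. Of 7772 further probe sets without a single gene symbol, 432 (5.56%) were called. All differences below are HF minus IFE on the log2 scale, ± the SE of the limma fit with n = 3 arrays per group, and a gene's signal is the median log2 signal of its probe sets. Rises went further than falls on the scale of these arrays, with 55 genes at least 8-fold higher against 23 at least 8-fold lower. No background level or detection call was used here, so where a group lies well below the median gene signal of its arrays (7.30 to 7.50 in HF and IFE) the fold is a ratio of signals and may not be that of the RNA. HF and IFE arrays did not overlap for 911 of the 916 called genes, against 32.8% of all genes in either direction. Among called genes with 3 or more probe sets, 599 of 850 had every probe set on the same side. The balance of directions depended on the scaling of the arrays, since after quantile normalization 495 genes were higher and 355 lower (58.2% of the calls higher, against 46.8%). Without HF replicate 2, 426 genes were higher and 589 lower, and without IFE replicate 1, 412 were higher and 734 lower, so the number of lower genes moved most with that array. In an alternative fit, called the letter block here, arrays that share the final letter of their names formed a block. HF replicate 1, IFE replicate 3 and SG replicate 1 shared their letter with no other array and so did not bear on the difference. That fit in effect compared HF replicates 2 and 3 with IFE replicates 1 and 2. HF replicate 2 was the HF array nearest to IFE for 376 of the 487 lower genes and for 202 of the 429 higher ones.

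**Figure D1:**
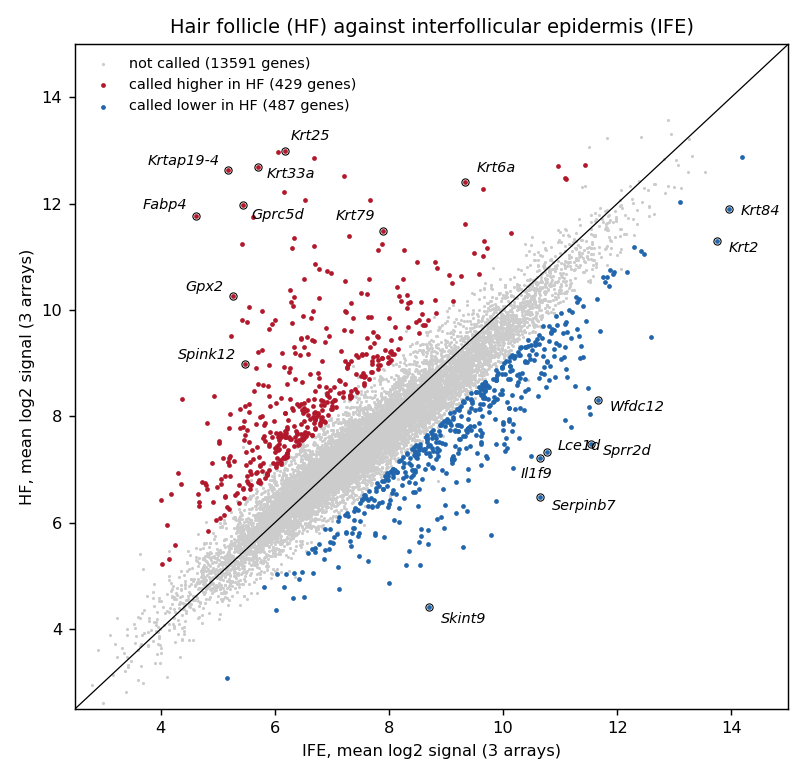
Mean log2 signal in HF (vertical axis) against that in IFE (horizontal axis), over 3 arrays each, for 14507 genes. Red points are the 429 genes called higher in HF, blue points the 487 called lower and grey points the rest; the line marks equal signal, and red points reach farther from it than blue ones.

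Genes of the hair shaft and its sheaths were among the highest rises. All 7 measured genes of the inner root sheath and companion layer were higher in HF, as were 8 of 9 hair shaft keratins, 7 of 10 keratin-associated proteins and 7 of 11 accessory proteins of hair differentiation. The median differences of these lists were 6.13, 4.06, 3.04 and 3.02, against -0.0712 over all genes. With the brightest probe set of each gene in place of the median, 4 accessory proteins were higher and the median of that list was 0.884, while those of shaft keratins and keratin-associated proteins were 3.25 and 2.29. Krt25 and Krt27 are acidic keratins of the inner root sheath, and Krt71, Krt72 and Krt73 their basic partners. Krt25 stood at 13.35, 12.26 and 13.35 in HF and at 6.51, 6.05 and 5.96 in IFE, in the order of the replicates. Every HF array lay far above every IFE array, and HF replicate 2 was the lowest of its group. The difference was 6.81 ± 0.74 (adjusted p = 0.000123). Krt27 rose by 6.90 ± 0.71, Krt71 by 6.16 ± 0.61, Krt73 by 6.13 ± 0.61 and Krt72 by 5.02 ± 0.45. Tchhl1, a trichohyalin-like protein, rose by 3.81 ± 0.38, and Krt75, a keratin of the companion layer, by 1.70 ± 0.30, the smallest rise of the list. Tchhl1 was no longer called by its brightest probe set.

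Shaft keratins rose as well, with 1 exception. Krt33a, an acidic hair keratin of the cortex, stood at 12.77, 12.38 and 12.91 in HF and at 5.47, 5.78 and 5.86 in IFE (6.98 ± 0.59, adjusted p = 2.88e-05). Krt31 rose by 6.04 ± 0.70, Krt34 by 5.32 ± 0.42, Krt35 by 4.06 ± 0.67 and Krt32 by 3.82 ± 0.73. Among the basic hair keratins, Krt82, found in the cuticle, rose by 4.88 ± 0.87 and Krt83 by 3.31 ± 0.32. Krt84 is a hair-type keratin known from the scales of tail epidermis, and it went the other way, at 11.59, 12.46 and 11.62 in HF and at 13.99, 14.08 and 13.80 in IFE (-2.07 ± 0.32, adjusted p = 0.00122). Its IFE arrays lay close together and above all HF arrays, of which HF replicate 2 was the highest. Krt39 had the smallest rise (1.95 ± 0.58, adjusted p = 0.0474). It was not called without any 1 of the 6 HF and IFE arrays or without SG replicate 2 (adjusted p = 0.0623 to 0.142), nor in eBayes with trend and robust, and Krt82 was not called with the brightest probe set.

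These keratin genes lie in clusters, and the stretches before their start sites are shown for members of both kinds. They are RefSeq promoter windows on build GRCm38.p6, of 80 bases before the start and 20 after it, on the gene's strand. Krt25 is at chr11:99322932-99323031 (minus strand), Krt34 at chr11:100041535-100041634 (minus), Krt31 at chr11:100050532-100050631 (minus) and Krt73 at chr15:101802341-101802440 (minus). Capitals mark the TATA box motif TATAAA, and members that hold it were picked for display.
Krt25: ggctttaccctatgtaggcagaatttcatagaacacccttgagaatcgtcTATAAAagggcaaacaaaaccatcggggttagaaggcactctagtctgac
Krt73: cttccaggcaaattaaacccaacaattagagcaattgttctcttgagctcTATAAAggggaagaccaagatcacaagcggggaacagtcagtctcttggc
Krt34: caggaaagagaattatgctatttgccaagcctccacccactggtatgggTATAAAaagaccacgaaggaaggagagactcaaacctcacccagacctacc
Krt31: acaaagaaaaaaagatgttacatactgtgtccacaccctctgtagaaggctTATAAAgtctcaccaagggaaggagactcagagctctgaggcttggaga
The motif was searched on the gene's strand at 40 to 20 bases before the start. It was present in 3 of 6 windows of called shaft keratins, 3 of 7 of root sheath genes and 4 of 8 of keratin-associated genes, and in 2.08% of 14685 windows of all measured genes (305 windows). Over all called genes it was in 4.46% of the windows of higher and 4.44% of those of lower genes. A match is a description of the letters in this window.

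Keratin-associated proteins fill the space between keratin filaments of the shaft. Krtap19-4, of the glycine and tyrosine-rich kind, had the largest measured difference. It stood at 13.06, 11.82 and 12.99 in HF and at 5.21, 5.28 and 5.05 in IFE, with no overlap and with HF replicate 2 lowest in HF (7.44 ± 0.48, adjusted p = 5.21e-06). Its IFE values lay below the median gene signal of every array, so no fold is given. The sulfur-rich Krtap5-4 rose by 4.38 ± 0.39, Krtap5-2 by 3.88 ± 0.60, Krtap4-13 by 3.45 ± 0.39 and Krtap26-1 by 4.09 ± 0.93. Other members were high in both compartments. Krtap6-1 stood at 13.75, 12.64 and 13.53 in HF and at 13.07, 13.00 and 12.77 in IFE, where the groups overlapped (0.36 ± 0.26, adjusted p = 0.416), and Krtap21-1 at 14.01, 12.80 and 13.88 in HF and at 13.00, 12.85 and 12.84 in IFE (0.67 ± 0.29, adjusted p = 0.165). Krtap21-1 was called without HF replicate 2 (adjusted p = 0.0109). Krtap13 was lower in HF, at 7.15, 10.25 and 7.10 in HF and at 11.56, 11.61 and 11.32 in IFE (-3.33 ± 0.64, adjusted p = 0.00498), with HF replicate 2 about 3 units above the other HF arrays. Without that array the difference was -4.37. Its call ended with the letter block. The calls of Krtap13-1 (2.63 ± 0.61) and Krtap26-1 ended without HF replicate 3 (adjusted p = 0.0609 and 0.0515) or IFE replicate 2 (0.0658 and 0.0506), and that of Krtap13-1 also without HF replicate 1 (0.0517), without IFE replicate 3 (0.0514), with the letter block and with the brightest probe set. The last setting ended the call of Krtap31-1 (2.37 ± 0.42) too. Members of this family share near-identical stretches, so signal may be split among them.

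Among accessory proteins, Gprc5d, an orphan receptor of the hair cortex, stood at 12.14, 11.61 and 12.16 in HF and at 5.58, 5.46 and 5.30 in IFE (6.52 ± 0.68, adjusted p = 9.66e-05). Dsg4, the desmosomal cadherin of the hair cortex, rose by 5.83 ± 0.73 and Vsig8, an immunoglobulin-domain protein of the hair, by 5.54 ± 1.02. On these genes SG replicate 3 was nearer to HF (10.04 for Dsg4 and 11.65 for Vsig8) than the other SG arrays were. Padi3, which converts arginine to citrulline in root sheath and shaft proteins, rose by 3.39 ± 0.37 and Padi1 by 1.25 ± 0.20. Crym, a thyroid hormone binding protein, rose by 4.17 ± 0.46 and the desmosomal cadherin Dsc2 by 3.02 ± 0.27. Selenbp1 was lower (-1.23 ± 0.28, adjusted p = 0.0142). S100a3, a calcium-binding protein of the hair cuticle, stood at 13.39, 12.58 and 13.21 in HF and at 11.13, 11.80 and 11.57 in IFE without overlap but was not called (1.56 ± 0.81, adjusted p = 0.247). It was called without SG replicate 3 (adjusted p = 0.00209) and in a fit of the 6 HF and IFE arrays alone. Selenbp1 was not called without HF replicate 1 (adjusted p = 0.0564) or with the letter block, the mean over probe sets or the brightest probe set, and the last ended the calls of Crym, Dsc2 and Padi1.

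**Figure D2:**
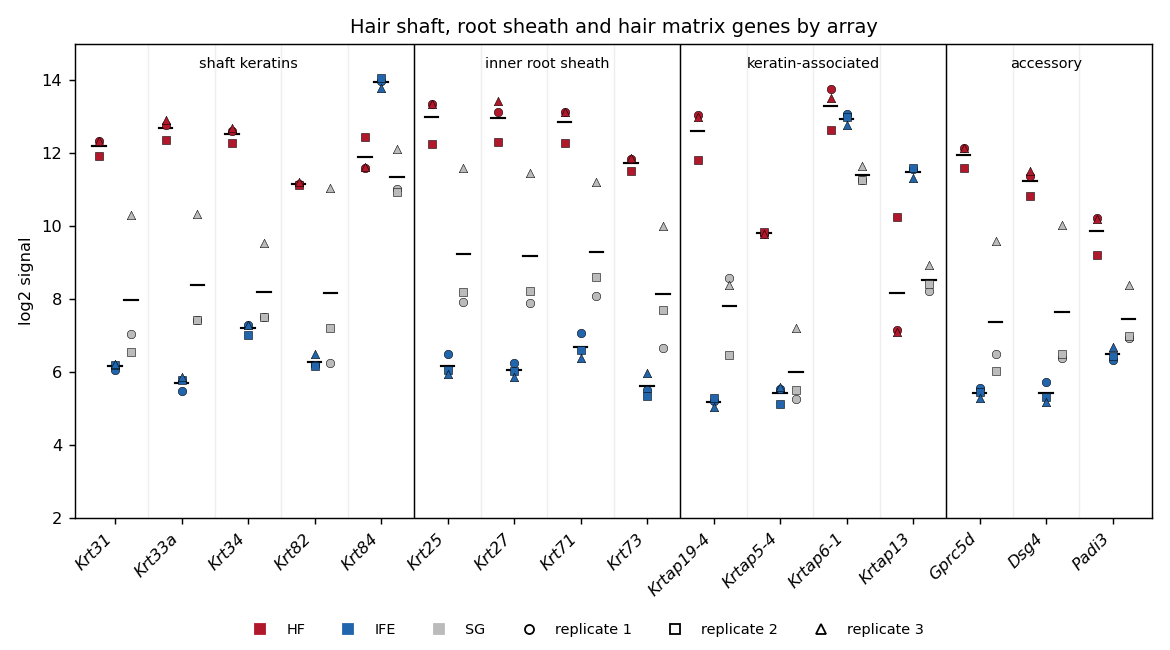
Log2 signal (vertical axis) of 16 hair genes on each of the 9 arrays; colours stand for the compartment, symbols for the replicate and short lines for group means. HF lies above IFE for the shaft, root sheath and accessory genes shown other than Krt84, whereas Krtap6-1 overlaps between HF and IFE and Krtap13 is higher in IFE.

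Further genes with high rises had other roles. Fabp4, a fatty acid binding protein best known from fat cells, stood at 11.88, 11.35 and 12.05 in HF and at 5.78, 4.60 and 3.49 in IFE (7.14 ± 0.65, adjusted p = 3.85e-05), and its IFE arrays were spread by more than 2 units. Of the other 11 adipocyte markers only Pck1 was called (1.08 ± 0.20), and the defining markers did not pass, with Adipoq at 0.53 ± 0.23 (adjusted p = 0.173), Plin1 at 0.056 ± 0.19 (0.888) and Cfd at 0.40 ± 0.21 (0.248). The summed signal of the list was 4185 to 5935 in HF and 1366 to 1479 in IFE, and most of the HF sum was Fabp4. The median difference of the list was 0.185, and the part of fat cells in these rises was not tested. Pck1 lost its call with IFE replicate 2 left out (log2 difference 0.95) or IFE replicate 3 (0.999), with the letter block, the mean over probe sets or the brightest probe set. Gpx2, a glutathione peroxidase of epithelia measured by a single probe set, rose by 5.01 ± 0.36 and read 9.89, 10.77 and 10.13 in HF and 9.50, 9.91 and 10.43 in SG. Outside the rule for naming genes, and chosen after their values were seen, the secreted phospholipase Pla2g2e rose by 4.51 ± 0.33, the aspartic protease cathepsin E, Ctse, by 4.51 ± 0.41 and the secreted carbonic anhydrase Car6 by 4.40 ± 0.29. Pcp4, a calmodulin-binding peptide, rose by 3.91 ± 0.24, and Sptssb, a small subunit of the enzyme that starts sphingolipid synthesis, by 3.94 ± 0.31. The HF arrays of each of these 5 genes lay above all IFE arrays, and 911 of the 916 called genes likewise had no overlap.

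Of 19 measured transcription factors of the hair lineage 5 were higher and none was lower, with a median difference of 0.439. Msx2, a homeobox factor of the matrix, stood at 11.11, 10.81 and 11.46 in HF and at 8.11, 8.31 and 8.37 in IFE (2.86 ± 0.65, adjusted p = 0.0127). Lef1, which carries Wnt signals to hair keratin genes, rose by 2.22 ± 0.33, Runx1 by 1.58 ± 0.20, Dlx3, a homeobox factor of matrix and shaft, by 1.38 ± 0.38 and Barx2 by 1.31 ± 0.24. Hoxc13 and Foxn1, regulators of hair keratin genes, did not pass. Hoxc13 stood at 9.23, 8.78 and 9.43 in HF and at 8.94, 9.63 and 9.41 in IFE, with overlap (-0.18 ± 0.40, adjusted p = 0.823), and Foxn1 at 9.37, 9.25 and 9.50 in HF and at 8.61, 8.74 and 8.73 in IFE, without overlap (0.68 ± 0.37, adjusted p = 0.272). Gata3, a factor of the inner root sheath, was at 0.27 ± 0.25 (0.564). Msx2 was not called without HF replicate 3 (adjusted p = 0.0568). Dlx3 was not called without any 1 of 5 arrays, HF replicates 1 and 3 and the IFE replicates (adjusted p = 0.0673 to 0.122), nor with the mean over probe sets, and both calls ended with the brightest probe set. In that last setting other members gained calls, so that 6 of the list were higher and 1 was lower (median 0.682).

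Genes of the resting bulge and hair germ were higher for 7 of 17 and lower for 1 (median 0.712). Lgr5, a receptor for R-spondins on follicle stem cells, stood at 7.76, 7.47 and 8.01 in HF and at 5.49, 5.59 and 5.46 in IFE (2.23 ± 0.20, adjusted p = 3.79e-05), and all 27 of its probe sets were higher in HF. The transcription factors Foxc1, Lhx2, Tbx1 and Sox9 rose by 2.39 ± 0.26, 2.19 ± 0.20, 1.44 ± 0.17 and 1.08 ± 0.16. Fgf18, a growth factor of the resting follicle, rose by 2.73 ± 0.30. Krt15, a keratin of bulge and basal cells, stood at 12.31, 12.57 and 12.52 in HF and at 10.90, 11.11 and 11.29 in IFE (1.37 ± 0.19, adjusted p = 0.000601). Cd200, a surface protein of bulge cells that is on no list here and was chosen after its values were seen, rose by 3.23 ± 0.17 (adjusted p = 3.34e-06). Cd34 (0.66 ± 0.22, adjusted p = 0.0712) and Nfatc1 (0.83 ± 0.20, adjusted p = 0.0201), further markers of bulge stem cells, did not pass the rule. Itga6, the integrin that anchors basal cells to the basement membrane, was lower in HF, at 8.57, 9.51 and 9.12 in HF and at 10.70, 11.09 and 11.22 in IFE (-1.94 ± 0.24, adjusted p = 0.000269). None of these 17 genes was called higher in HF than in SG. With the brightest probe set 3 genes were higher and 2 lower (median 0.204), since the calls of Foxc1, Krt15 and Lgr5 ended and Fgf18 turned to -0.37.

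Genes of the infundibulum, isthmus and sebaceous duct were higher for 8 of 12, and none was lower (median 2.02). Krt79, a keratin of the duct and infundibulum, stood at 11.28, 11.67 and 11.52 in HF and at 7.21, 7.56 and 8.93 in IFE (3.59 ± 0.35, adjusted p = 5.82e-05), and IFE replicate 3 was the highest of the IFE arrays. Krt6a, a keratin of the companion layer and of stressed epidermis, stood at 12.42, 12.37 and 12.41 in HF and at 9.17, 9.41 and 9.43 in IFE with very little spread (3.06 ± 0.22, adjusted p = 9.87e-06). Krt17 rose by 2.29 ± 0.28. The defensin Defb6 rose by 3.36 ± 0.28, the kallikrein proteases Klk6 and Klk10 by 3.45 ± 0.40 and 3.31 ± 0.29 and the cystatin Cst6, an inhibitor of cathepsins, by 1.75 ± 0.21. Lrig1, an inhibitor of EGF receptors that marks stem cells of the upper follicle, rose by 1.63 ± 0.22. Plet1 (0.32 ± 0.42, adjusted p = 0.688) and Krt16 (0.87 ± 0.29, 0.0705) did not pass, though Krt16 was called after quantile normalization and with the mean over probe sets. Set beside SG, Krt79, Defb6 and Cst6 had HF minus SG differences of -0.42, -0.92 and 0.15, none of them called, while Klk6 and Klk10 were called higher in HF (2.08 and 1.55). Against SG, 3.3% of all genes were called higher and 1.81% lower in HF, and this comparison shares the HF arrays with that against IFE.

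Markers of sebocytes moved with these upper follicle genes. Of 17 measured, 10 were higher in HF than in IFE and 1 was lower (median 1.68), and none was higher in HF than in SG. Elovl3, an elongase of sebum lipids, stood at 8.61, 9.10 and 9.10 in HF and at 5.99, 5.85 and 6.62 in IFE and at 10.40, 10.81 and 10.35 in SG (2.78 ± 0.24 against IFE and -1.59 against SG). Far2, which makes fatty alcohols, rose by 2.52 ± 0.29 against IFE and stood at -2.82 against SG, and the fatty acid hydroxylase Fa2h by 2.23 ± 0.35 and -2.64. The summed sebocyte signal was 7064 to 11520 in HF, 4068 to 6144 in IFE and 30570 to 42590 in SG. The part of gland RNA in the HF values was not tested. Pparg, the nuclear receptor of sebocyte differentiation, was at 0.78 ± 0.30 (adjusted p = 0.122). Dgat2, a triglyceride enzyme on the list, was lower (-1.52 ± 0.21, adjusted p = 0.000601). Without HF replicate 2 the counts were the same, at 10 and 1, and the median was 1.35. By their brightest probe sets 6 sebocyte markers were higher and 1 was lower (median 0.773), and Cidea, Hsd3b6, Mc5r and Soat1 were not called.

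In the Wnt pathway 7 of 59 genes were higher in HF and 1 was lower (median 0.137, with 13.6% called against 6.31% of all genes). They were the receptors Fzd3 (2.64 ± 0.19, adjusted p = 1.07e-05) and Fzd4 (1.35 ± 0.21), the co-receptor Lgr5, the nuclear partners of beta-catenin, Lef1 and Tcf7 (1.34 ± 0.22), and the feedback inhibitors Nkd1 (1.52 ± 0.24) and Nkd2 (1.85 ± 0.32). Fzd3 stood at 8.75, 9.02 and 8.93 in HF and at 6.15, 6.37 and 6.28 in IFE, without overlap. Axin2, a common target of the pathway, was on the other side (-0.58 ± 0.17, adjusted p = 0.0438) without reaching the size limit, and Dkkl1, a Dickkopf-like secreted protein, was lower (-1.95 ± 0.35, adjusted p = 0.0032). Beta-catenin, Ctnnb1, was at 0.86 ± 0.24 (0.0351) and was called after quantile normalization (1.14). No measured Wnt ligand was called. The letter block ended the call of Dkkl1, the mean over probe sets that of Fzd4, and with the brightest probe set 3 genes were lower, the calls of Lgr5 and Tcf7 ended and Nkd1 turned to -0.73.

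Of 45 genes of the BMP, activin and TGF-beta pathway, 5 were higher and none was lower (median 0.104, with 11.1% called against 6.31% of all genes). Bmp4, a ligand that directs shaft differentiation, stood at 9.56, 8.76 and 9.92 in HF and at 6.78, 6.63 and 6.66 in IFE (2.72 ± 0.46, adjusted p = 0.00224), and Bmp8a rose by 1.64 ± 0.22. Inhba, the subunit of activin A, rose by 1.54 ± 0.19, the activin-binding inhibitor Fst by 1.26 ± 0.27 and the follistatin-like protein Fstl1 by 2.03 ± 0.18. Fst was not called without HF replicate 2 (log2 difference 0.998) or with the mean over probe sets, and the brightest probe set ended the calls of Fst, Fstl1 and Inhba.

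Ligands of EGF-type receptors split by direction. Nrg1 (1.63 ± 0.21), a ligand of ERBB3 and ERBB4, and Tgfa (1.26 ± 0.24), a ligand of EGFR, were higher in HF. Ereg (-2.69 ± 0.36, adjusted p = 0.000448) and Btc (-1.50 ± 0.21, adjusted p = 0.000713), ligands of the same receptor family, were lower. Ereg stood at 7.65, 7.54 and 7.58 in HF and at 10.72, 10.88 and 9.25 in IFE, with IFE replicate 3 below the other IFE arrays and above all HF arrays. In the FGF list 2 of 32 were higher, Fgf18 and Fgf5 (1.88 ± 0.40), the factor that ends hair growth, and 3 lower, the FGF carrier Fgfbp1 (-1.64 ± 0.19, adjusted p = 0.000177), the receptor Fgfr2 (-1.10 ± 0.22, 0.00693) and Fgf13 (-1.18 ± 0.21, 0.00295). Thus 15.6% of the FGF list was called, against 6.31% of all genes. With the letter block 1 was higher and 1 lower. Fgf13 was not called there, with the mean over probe sets or with the brightest probe set, nor was Fgfr2, which also lost its call after quantile normalization and without HF replicate 2 (log2 difference -0.98) or IFE replicate 3 (-0.97). In the hedgehog list 1 of 14 was called (7.14%, against 6.31% of all genes). It was the inhibitor Hhip (-2.11 ± 0.25, adjusted p = 0.000185), lower in HF, while Shh (0.72 ± 0.31, 0.159), Gli1 (0.68 ± 0.26, 0.114) and Ptch1 (0.63 ± 0.23, 0.108) did not pass. Shh was called with the brightest probe set (2.49) and with the mean over probe sets (1.26). None of 18 Notch pathway genes was called by limma, with 3 at an unadjusted p under 0.05 (2 were called with the brightest probe set and 1 with the mean over probe sets), and Notch1 was at -0.077 ± 0.16. The letter block ended the calls of Tgfa and Fgf5, and the brightest probe set those of Btc, Fgf5, Hhip, Nrg1 and Tgfa. Retinoid handling showed 3 of 18 higher, with the retinol transporter Stra6 at 1.49 ± 0.17, the retinoic acid synthesis enzyme Aldh1a3 at 1.56 ± 0.25 and the retinol esterifying enzyme Lrat at 1.17 ± 0.35 (adjusted p = 0.0487), and 1 lower, the retinol dehydrogenase Dhrs9 (-1.82 ± 0.24, adjusted p = 0.000449), with Stra6 and Aldh1a3 not called with the brightest probe set. Lrat was not called without SG replicate 2 or any 1 of the HF and IFE arrays (adjusted p = 0.0663 to 0.153), or with the letter block or the mean over probe sets.

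**Figure D3:**
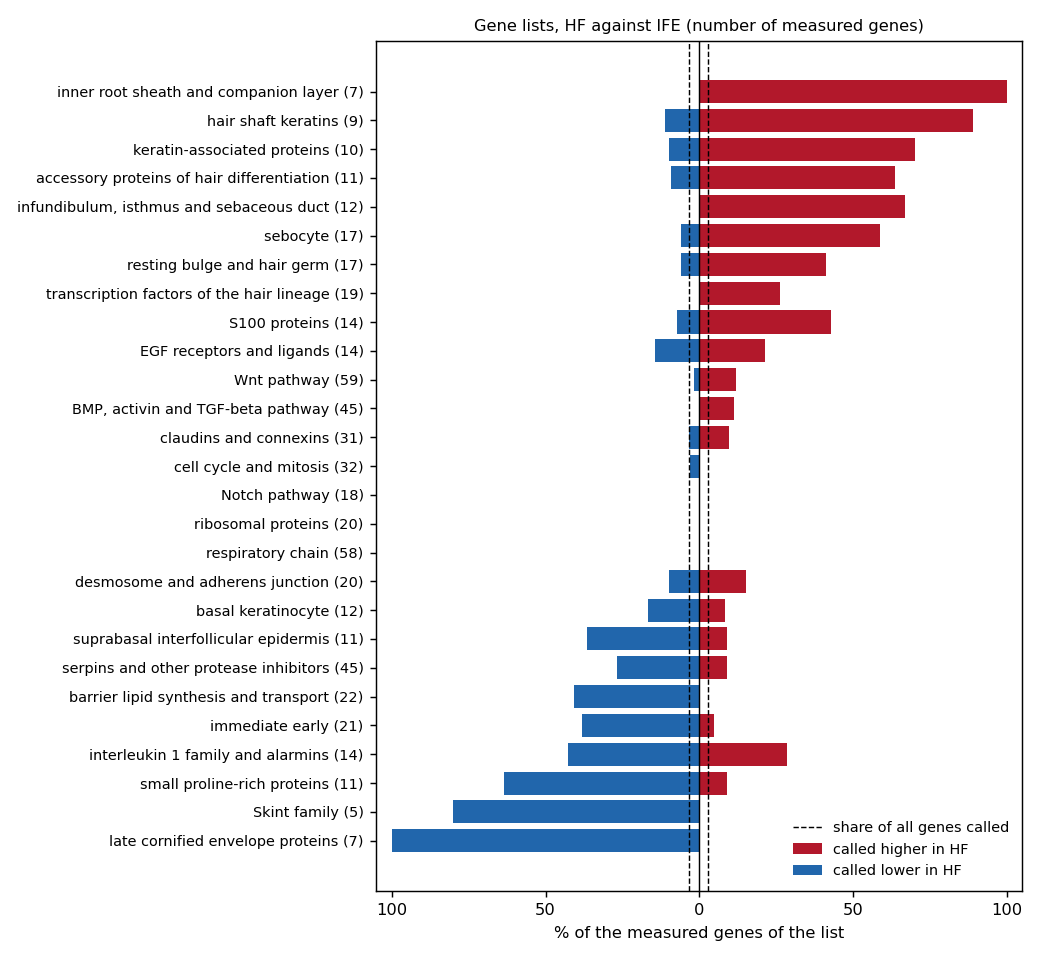
Share of the measured genes of 27 lists called higher (red, to the right) or lower (blue, to the left) in HF than in IFE, in percent, with the number of measured genes in brackets; dashed lines mark the 2.96% and 3.36% of all genes called. Hair lists lie at the top with shares of up to 100% and barrier lists at the bottom with shares of up to 100% the other way.

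The IFE was marked by genes of the cornified envelope. All 7 measured late cornified envelope genes were lower in HF, as were 7 of 11 small proline-rich genes, with medians of -2.31 and -2.87. Among the brighter 50% of genes were 6 of the 11 small proline-rich proteins, of which 3 were lower (median -1.16). Late cornified envelope proteins are cross-linked into the envelope in the last steps of cornification. Lce1d stood at 6.58, 8.59 and 6.80 in HF and at 10.59, 10.64 and 11.07 in IFE (-3.44 ± 0.43, adjusted p = 0.0003), and HF replicate 2 lay well above the other HF arrays but below every IFE array. HF replicate 2 was the highest HF array as well for Lce1c (-2.69 ± 0.33), Lce1l (-2.65 ± 0.29) and Lce1f (-2.18 ± 0.24). Lce1b had the smallest difference (-1.78 ± 0.19, adjusted p = 0.00012). Without HF replicate 2 all 7 were again lower, with a median of -2.73. Lce1l was not called with the brightest probe set. The Lce and Sprr families include near-identical copies, so their probe sets may share signal.

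Small proline-rich proteins are bridges between envelope proteins. Sprr2d stood at 7.29, 8.07 and 7.07 in HF and at 11.79, 11.94 and 10.90 in IFE (16.7-fold lower in HF, -4.06 ± 0.38, adjusted p = 5.14e-05). Sprr2h stood at 6.13, 6.54 and 5.87 in HF and at 9.93, 9.23 and 8.38 in IFE (adjusted p = 0.00046). Sprr2b was at -3.11 ± 0.45, Sprr2k at -2.87 ± 0.34 and Sprr1b at -2.09 ± 0.33. Sprr2i stood at 5.48, 5.41 and 4.71 in HF and at 9.66, 9.53 and 6.47 in IFE and Sprr2e at 5.76, 4.37 and 6.49 in HF and at 10.64, 10.67 and 6.59 in IFE, so IFE replicate 3 was the lowest IFE array on both, and for Sprr2e only just above HF replicate 3. Sprr2e (-3.76 ± 0.88) was not called without HF replicate 2 (adjusted p = 0.0591) or without IFE replicate 2 (0.0832). Sprr4 moved the other way, at 10.81, 10.57 and 10.96 in HF and at 7.14, 6.85 and 6.36 in IFE (4.00 ± 0.26, adjusted p = 5.21e-06). Sprr1a (0.84 ± 0.34, adjusted p = 0.141, called higher without IFE replicate 1 at 0.0351) and Sprr3 (-0.22 ± 0.23, 0.608) were not called, nor was Sprr2f (-1.53 ± 0.49, 0.0654), which passed without IFE replicate 3 (adjusted p = 0.0164). The summed signal of the 11 genes was 12600 to 15310 in HF and 25760, 25010 and 15110 in IFE, so that IFE replicate 3 lay within the range of HF.

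Promoter windows of 3 genes that were lower in HF and of Sprr4, the gene of this family that was higher, are shown with a late envelope gene to set the members against each other. They come from RefSeq on build GRCm38.p6 and run on the gene's strand from 200 bases before the start, or 80 for Lce1d, to 20 after it. Sprr2d is at chr3:92338940-92339159 (plus strand), Sprr2h at chr3:92385485-92385704 (plus), Sprr1b at chr3:92438760-92438979 (minus), Sprr4 at chr3:92500474-92500693 (minus) and Lce1d at chr3:92687191-92687290 (minus). Capitals mark TATAAA and the AP-1 motif TGANTCA.
Sprr2d: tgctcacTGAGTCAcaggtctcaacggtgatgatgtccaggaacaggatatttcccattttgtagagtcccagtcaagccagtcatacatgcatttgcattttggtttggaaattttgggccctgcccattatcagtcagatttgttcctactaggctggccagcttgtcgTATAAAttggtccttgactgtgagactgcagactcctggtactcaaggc
Sprr2h: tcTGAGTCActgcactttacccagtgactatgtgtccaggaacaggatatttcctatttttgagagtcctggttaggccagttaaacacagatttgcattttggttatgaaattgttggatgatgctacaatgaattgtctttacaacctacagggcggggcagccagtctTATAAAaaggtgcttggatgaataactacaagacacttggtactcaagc
Sprr1b: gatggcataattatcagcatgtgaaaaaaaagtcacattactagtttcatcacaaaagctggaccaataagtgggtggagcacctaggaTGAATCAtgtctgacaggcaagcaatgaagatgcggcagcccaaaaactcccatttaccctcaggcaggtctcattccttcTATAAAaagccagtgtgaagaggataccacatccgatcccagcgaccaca
Sprr4: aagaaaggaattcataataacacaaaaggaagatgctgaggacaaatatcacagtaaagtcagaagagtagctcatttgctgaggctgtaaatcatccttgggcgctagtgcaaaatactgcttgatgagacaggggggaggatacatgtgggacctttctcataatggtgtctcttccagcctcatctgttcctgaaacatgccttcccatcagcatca
Lce1d: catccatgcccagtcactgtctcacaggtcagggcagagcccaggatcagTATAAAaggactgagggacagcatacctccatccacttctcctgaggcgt
Of the 8 called genes of the family, 7 had TATAAA in their window and 7 had TGANTCA (searched on both strands of 300 bases). In the 6 called Sprr2 genes TATAAA began 29 bases and the AP-1 motif 193 to 198 bases before the start, with a second at 182 in Sprr2k, and in Sprr1b they began at 30 and 111. The motifs did not separate called members from the others, since the uncalled Sprr2f held TATAAA at 29 and TGANTCA at 197, Sprr3 held TATAAA at 33, and Sprr1a held TGANTCA at 146 and 116. Sprr4 held neither in these letters, and Lce1d was the 1 of 6 late envelope windows with TATAAA. Over all called genes TGANTCA was in 12.7% of the windows of lower and 7.28% of those of higher genes, and in 6.53% of all windows. The motif CTTTGAT of LEF1 and TCF factors, also searched on both strands, was in 4.23% of the windows of higher genes, 3.43% of those of lower genes and 2.89% of all. It was in 0 of 6 windows of called shaft keratins, 0 of 7 of root sheath genes and 0 of 8 of keratin-associated genes. The windows of called small proline-rich and late envelope genes (8 and 6) held none either. These shares describe windows, several of which can belong to a gene.

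Other parts of the barrier were lower in HF too. Loricrin, Lor, the main envelope protein, stood at 9.50, 9.89 and 9.51 in HF and at 11.12, 11.26 and 11.48 in IFE (-1.65 ± 0.23, adjusted p = 0.000601), and the transglutaminase Tgm3, which cross-links it, was lower by a smaller amount (-1.14 ± 0.17). Of 22 genes of barrier lipid synthesis and transport, 9 were lower and none was higher (median -0.793). The lipoxygenases Alox12b and Aloxe3, which act in sequence on ceramide lipids, were at -2.39 ± 0.26 and -2.45 ± 0.21, and Alox12b stood at 7.32, 7.91 and 7.23 in HF and at 9.57, 10.02 and 10.02 in IFE. The ceramide desaturase Degs1 was at -2.20 ± 0.29, the elongase Elovl1 at -1.37 ± 0.23 and the lipid transporter Abca12 at -1.38 ± 0.22. The suprabasal keratins split, with Krt2 at 10.86, 12.08 and 10.94 in HF and at 13.44, 14.02 and 13.77 in IFE (-2.45 ± 0.30, adjusted p = 0.000232) and Krt10 at -1.32 ± 0.18, while Krt1 did not pass (-0.20 ± 0.28, 0.713) and Krt77 was higher (1.49 ± 0.28, adjusted p = 0.00457). The caspase of cornification, Casp14, was at -1.94 ± 0.25. Of 11 suprabasal genes 4 were lower and 1 was higher, and after quantile normalization 2 were lower, since the calls of Krt10 and Dmkn (-1.07 ± 0.18) ended. That of Tgm3 ended there too. Dmkn was also not called without HF replicate 3 (log2 difference -0.97) or with the letter block, and Abca12 and Krt10 were not called with the brightest probe set.

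The basal keratins did not differ by the rule. Krt14 stood at 13.10, 12.55 and 12.87 in HF and at 12.92, 12.78 and 12.78 in IFE (0.015 ± 0.20, adjusted p = 0.977) and Krt5 at -0.29 ± 0.21 (0.414), with overlap for Krt14 only. Of 12 basal genes Krt15 was higher and 2 were lower, Itga6 and its partner Itgb4 (-1.03 ± 0.18, adjusted p = 0.00324). Lower calls numbered 5 without IFE replicate 1 and 3 without IFE replicate 2 or either of HF replicates 2 and 3. Just short of the size limit lay the regulator of basal cells Trp63 (-0.93 ± 0.23, adjusted p = 0.0201) and the anchoring collagen Col17a1 (-0.99 ± 0.17, 0.00283), and each was called without IFE replicate 1 (adjusted p = 0.0222 and 0.00529). Trp63 was also called without HF replicate 2 (0.0312) and Col17a1 without HF replicate 3 (0.0144) or IFE replicate 2 (0.0136). Itgb4 was not called without HF replicate 1 (log2 difference -0.99) or IFE replicate 3 (-0.86), or with quantile normalization, the letter block or the mean over probe sets. Among junction genes the hair desmosome members Dsg4 and Dsc2 and the plakophilin Pkp2 (1.65 ± 0.18) were higher, and Dsg1b, the desmoglein of upper epidermis, was lower (-1.45 ± 0.22, adjusted p = 0.00105). The tight junction claudins Cldn17 (2.01 ± 0.27), Cldn8 (1.38 ± 0.26) and Cldn10 (1.26 ± 0.25) were higher and Cldn23 (-1.61 ± 0.19) was lower, among 31 claudins and connexins (12.9% called, against 6.31% of all genes). After quantile normalization 5 junction genes were higher and with the brightest probe set 1, and the latter ended the calls of Cldn8, Cldn23 and Pkp2.

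Of 45 protease inhibitors 12 were lower in HF and 4 higher (median -0.248). Serpinb7, a serpin of the upper epidermis, stood at 5.57, 7.25 and 6.64 in HF and at 10.38, 10.82 and 10.76 in IFE (-4.17 ± 0.36, adjusted p = 3.36e-05), with 1 of its 9 probe sets on the other side. That probe set was the brightest, and by it the difference was 0.88. Serpina12, known as the adipokine vaspin and made in skin, stood at 7.49, 8.97 and 7.69 in HF and at 11.19, 11.79 and 11.59 in IFE (-3.47 ± 0.40), and Wfdc12, a whey acidic protein inhibitor, at 7.86, 9.04 and 8.00 in HF and at 12.01, 11.42 and 11.57 in IFE (-3.37 ± 0.29). Their IFE arrays lay above 11, and HF replicate 2 was the highest HF array on both. Serpinb12, Serpinb13 and Serpinb6c were lower, at -2.95 ± 0.38, -2.67 ± 0.27 and -2.81 ± 0.33. The 4 higher were Spink12 (3.51 ± 0.19, adjusted p = 3.34e-06), a Kazal-type inhibitor, the plasma-type serpins Serpina3b (2.79 ± 0.47) and Serpina1e (2.76 ± 0.29) and Cst6. Serpina3b was higher in SG than in HF (-2.48 for HF minus SG). Of 15 proteases 5 were higher and 3 lower. Besides Klk6 and Klk10 these were cathepsin L, Ctsl (1.39 ± 0.26), matriptase, St14 (1.38 ± 0.30), and Prss22 (1.07 ± 0.17), against Casp14, Klk9 (-1.43 ± 0.17) and Tmprss4 (-1.33 ± 0.28). Klk15, chosen after its values were seen, rose by 3.74 ± 0.24. The main desquamation protease Klk7 was at -0.20 ± 0.29 (adjusted p = 0.723). St14 was not called without HF replicate 3 (adjusted p = 0.0535) or with the letter block, and Prss22 was not called without HF replicate 2 (log2 difference 0.96). With the brightest probe set the calls of Ctsl and Klk15 ended, and Tmprss4, which the letter block ended too, turned to 0.12.

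**Figure D4:**
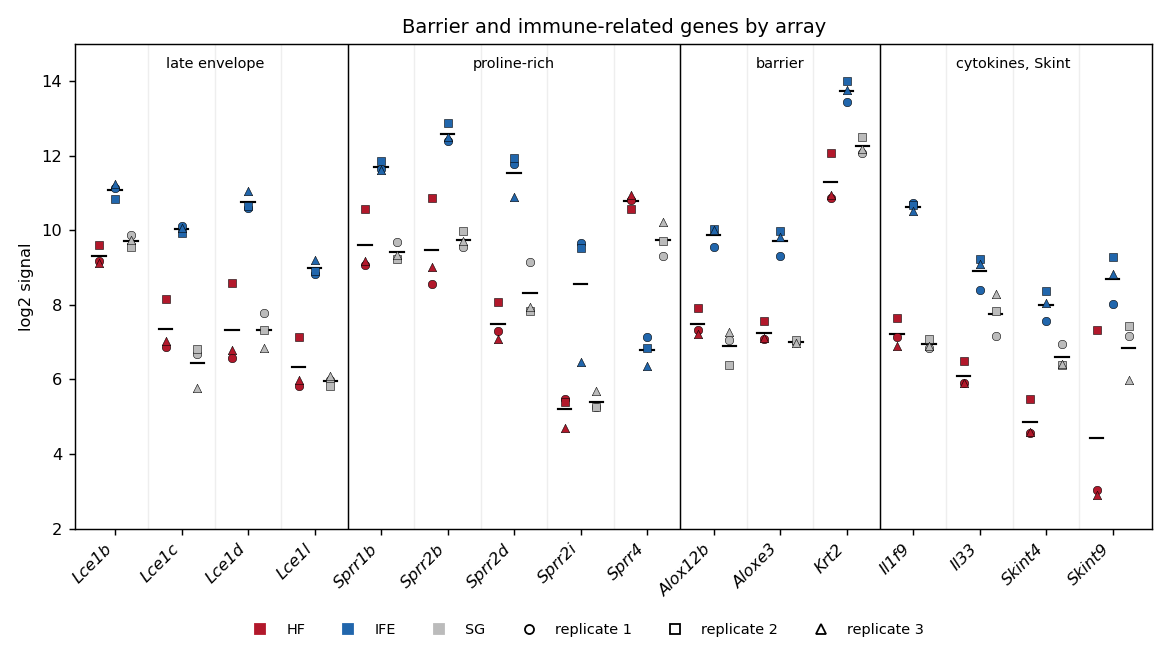
Log2 signal (vertical axis) of 16 genes of the cornified barrier, cytokines and Skint family on each of the 9 arrays; colours stand for the compartment, symbols for the replicate and short lines for group means. IFE lies above HF for all but Sprr4, and HF replicate 2 (square) is the HF array nearest to IFE for Lce1d and Skint9, at 8.59 and 7.33 of log2 signal.

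Several genes by which the epidermis signals to immune cells were lower in HF. Il1f9, the older symbol of an interleukin 36 cytokine (gamma), stood at 7.13, 7.64 and 6.90 in HF and at 10.72, 10.68 and 10.52 in IFE (10.7-fold lower, -3.42 ± 0.20, adjusted p = 4.1e-06), with narrow groups on both sides. The alarmin interleukin 33, Il33, stood at 5.90, 6.51 and 5.91 in HF and at 8.40, 9.22 and 9.11 in IFE (-2.80 ± 0.30, adjusted p = 0.000123), and Tslp, a cytokine of allergic skin, at -2.37 ± 0.29 (adjusted p = 0.000252). Il1f6, interleukin 36 alpha, was at -1.95 ± 0.39, its receptor chain Il1rl2 at -1.31 ± 0.26 and the decoy receptor Il1r2 at -2.83 ± 0.52, all lower. Of 14 genes of the interleukin 1 family and alarmins 6 were lower and 4 higher. The higher ones were Il1f10, an antagonist-like cytokine (2.06 ± 0.28, adjusted p = 0.00046), and the calcium-binding alarmins S100a7a (3.44 ± 0.40), S100a8 (1.51 ± 0.38) and S100a9 (1.04 ± 0.28). S100a7a stood at 8.53, 7.97 and 8.63 in HF and at 5.41, 4.82 and 4.57 in IFE. S100a8 and S100a9 each lost the call with any 1 of several arrays left out. Neither was called without HF replicate 2 (adjusted p = 0.0802 and 0.1), HF replicate 3 (0.0596 and 0.0946), IFE replicate 1 (both 0.0545) or IFE replicate 3 (0.1 and 0.12), nor S100a9 without IFE replicate 2 (0.051). The letter block ended the calls of S100a8, S100a9, Il1f6, Il1r2 and Il1rl2, and the brightest probe set those of S100a8 and Il33.

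Skint genes code for membrane proteins of keratinocytes, and the family holds a member known for selecting the gamma delta T cells of the epidermis. Such a role of the called members was not tested. Of 5 measured, 4 were lower in HF. The remaining gene was not called, but its HF arrays lay above all IFE arrays, with an unadjusted limma p under 0.05. Skint9 stood at 3.04, 7.33 and 2.90 in HF and at 8.01, 9.27 and 8.83 in IFE (-4.28 ± 0.92, adjusted p = 0.00951). All 5 genes were among the 50% with the lower mean signal, and HF replicates 1 and 3 lay far below the median gene signal, so no fold is given. HF replicate 2 was more than 4 units above the other HF arrays and below every IFE array, and without it the difference was -5.74. Skint4 stood at 4.55, 5.47 and 4.59 in HF and at 7.58, 8.36 and 8.06 in IFE (-3.13 ± 0.28, adjusted p = 3.82e-05), Skint3 at -2.89 ± 0.70 and Skint10 at -1.59 ± 0.35. Skint3 and Skint10 were not called without HF replicate 1 (adjusted p = 0.0843 and 0.051) or IFE replicate 2 (0.0811 and 0.0581), nor Skint3 without HF replicate 3 (0.0784), and the letter block ended the calls of Skint3, Skint9 and Skint10. This family includes near-identical copies as well. Among T cell markers 1 of 10 was called, Thy1, at 6.74, 7.57 and 6.72 in HF and at 8.81, 9.66 and 9.68 in IFE (-2.37 ± 0.41, adjusted p = 0.00263), and Cd3e (0.087 ± 0.24, 0.861) and Cd3g (0.16 ± 0.17, 0.598), chains of the T cell receptor complex, did not pass. Thus 10% of the T cell list was called, against 6.31% of all genes. The summed signal of the T cell list, Thy1 included, was 769 to 1061 in HF and 1149 to 1646 in IFE. The median log2 signal of the list overlapped, at 6.13 to 6.42 in HF and 6.27 to 6.47 in IFE. Among 11 genes of Langerhans cells, the antigen-presenting cells of the epidermis, and of MHC class II, 3 were lower in HF, Cd207 (-1.02 ± 0.21), H2-Aa (-1.25 ± 0.26) and H2-Eb1 (-1.17 ± 0.25). After quantile normalization 1 was lower, as without HF replicate 3 or IFE replicate 2, and without IFE replicate 1 there were 5. Their summed signal was 1907 to 2272 in HF and 2401 to 2489 in IFE. The part of such immune cells in these falls was not tested. Cd207 fell below the size limit without HF replicate 2 or 3 or IFE replicate 2 (log2 difference -0.84, -0.97 and -0.94), and H2-Eb1 lost its call when HF replicate 3 or IFE replicate 2 was left out (adjusted p = 0.0515 and 0.051). H2-Aa was not called with the letter block, Cd207 with median centring, neither Cd207 nor H2-Eb1 with the mean over probe sets, and with the brightest probe set Cd207 lost its call while Thy1 and H2-Eb1 turned to 0.061 and 0.0082.

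Further large falls were in genes of varied roles. Ly6m, a lymphocyte antigen 6 family member, stood at 7.50, 8.57 and 7.30 in HF and at 11.74, 10.96 and 10.89 in IFE (-3.40 ± 0.32), the secretoglobin Scgb1a1 at 5.58, 8.11 and 5.52 in HF and at 9.55, 10.23 and 9.84 in IFE (-3.47 ± 0.53) and the membrane protein gene Tmem45a2 at 4.88, 7.22 and 5.20 in HF and at 9.68, 10.13 and 9.57 in IFE (-4.03 ± 0.46). On Scgb1a1 and Tmem45a2 HF replicate 2 was more than 2 units above the other HF arrays, and without it the differences were -4.33 and -4.75. Hal, histidase, which makes the ultraviolet absorber urocanic acid of the upper epidermis, was at -3.16 ± 0.30 (adjusted p = 5.82e-05), and the interferon-inducible Oas1f at -3.22 ± 0.42 (adjusted p = 0.000357). Chosen after their values were seen, the phosphodiesterase Gdpd2 was at -3.14 ± 0.24, the neutral ceramidase Asah2 at -2.98 ± 0.26, the secreted Ly6-type protein Slurp1 at -2.69 ± 0.29 and the circadian transcription factor Hlf at -2.45 ± 0.21, all lower in HF. For each of these 9 genes the IFE arrays lay above all HF arrays. Lack of overlap was a condition for naming the largest falls, and 911 of the 916 called genes met it. Gdpd2 was not called with the brightest probe set.

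Immediate early genes, switched on fast by injury or handling, were among the lower genes too. Of 21 measured, 8 were lower in HF and 1 was higher (median -0.78), and after quantile normalization 5 were lower. Atf3 stood at 7.30, 8.35 and 7.54 in HF and at 10.92, 10.19 and 9.38 in IFE (-2.43 ± 0.35, adjusted p = 0.000786), the phosphatase Dusp1 at 8.67, 9.08 and 8.47 in HF and at 11.20, 11.20 and 10.34 in IFE (-2.18 ± 0.26) and Fos at 7.28, 7.87 and 7.19 in HF and at 9.96, 9.63 and 8.65 in IFE (-1.97 ± 0.30). On each of these genes IFE replicate 3 was the lowest IFE array. Without IFE replicate 3, 11 genes of the list were lower. Zfp36, which speeds the decay of cytokine mRNA, was lower at -1.75 ± 0.22, and Egr1 (-0.78 ± 0.31, adjusted p = 0.129) and Jun (-0.77 ± 0.24, 0.0633) did not pass in the full fit. Egr1 was called without HF replicate 2 (adjusted p = 0.0445) and Jun without IFE replicate 3 (0.0208). Egr2, a zinc finger factor of this class that is also known from the follicle, was higher in HF, at 11.24, 11.58 and 11.06 in HF and at 9.75, 9.86 and 9.38 in IFE (1.63 ± 0.26, adjusted p = 0.00141). Among 5 heat shock genes 2 were lower, Hspa1a (-1.54 ± 0.20, adjusted p = 0.000438) and Dnajb1 (-1.35 ± 0.27). The summed signal of the immediate early list was 14850 to 24040 in IFE and 10430 to 14020 in HF. Its part in the falls of other genes was not tested. Dnajb1 was not called with the letter block, the mean over probe sets or the brightest probe set.

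Of 32 measured genes of cell division none was higher and 1 was lower (3.12% called, against 6.31% of all genes). It was Prc1, a protein of the dividing spindle (-1.24 ± 0.27, adjusted p = 0.0107), with Top2a at -0.67 ± 0.31 (0.188). Prc1 was not called without IFE replicate 2 (adjusted p = 0.0581) or IFE replicate 3 (0.0511), or with the letter block, the mean over probe sets or the brightest probe set. None of 20 ribosomal protein genes and none of 58 respiratory chain genes was called by limma, with 8 and 11 at an unadjusted p under 0.05 and medians of -0.443 and 0.022. A ribosomal gene was called lower without SG replicate 3, without IFE replicate 1, with array weights and in the fit of HF and IFE alone, and a respiratory chain gene higher with the brightest probe set. Hox genes, which keep body position, were called for 1 of 31 (3.23%, against 6.31% of all genes). This was Hoxc8 (1.26 ± 0.32), whose call ended without HF replicate 2, IFE replicate 2 or IFE replicate 3 (adjusted p = 0.0752, 0.0725 and 0.0573) and with the brightest probe set.

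Markers of dermal and other cells that a follicle can carry were called in some lists and not in others. Each list with a call had a share of called genes above the 6.31% of all genes. The lists held 10 genes or fewer, so 1 call was enough for that. Among 8 fibroblast markers 1 was higher in HF, the proteoglycan Dcn (1.70 ± 0.45, adjusted p = 0.0286), while the collagens Col1a1 (-0.0022 ± 0.17), Col1a2 (-0.043 ± 0.18) and Col3a1 (0.16 ± 0.17) did not pass. Dcn was not called without any 1 of 5 arrays, the HF replicates and IFE replicates 1 and 2 (adjusted p = 0.0573 to 0.1). Of 10 dermal papilla markers the proteoglycan Vcan was higher (1.34 ± 0.19) and Hhip lower, and the defining Corin (0.14 ± 0.19), Alpl (-0.096 ± 0.16) and Rspo3 (-0.038 ± 0.18) did not pass. Of 7 smooth muscle markers Acta2 was higher, at 7.06, 7.31 and 7.07 in HF and at 5.09, 4.90 and 5.56 in IFE (1.96 ± 0.19, adjusted p = 6.68e-05), and Myh11 (-0.041 ± 0.16) and Des (-0.075 ± 0.22) did not pass. Myh11 was called higher by its brightest probe set (1.47). Among 7 melanocyte markers the factor Mitf (1.66 ± 0.17, adjusted p = 9.4e-05) and the receptor Kit (1.09 ± 0.21) were higher and the pigment enzymes Tyr (-0.046 ± 0.24), Tyrp1 (-0.019 ± 0.40) and Dct (0.052 ± 0.42) did not pass. Their summed signal was 1279 to 1438 in HF and 778 to 1122 in IFE. No marker was called by limma among 7 endothelial, 6 skeletal muscle and 1 red blood cell genes, and none had an unadjusted p under 0.05. Of 4 Schwann cell markers S100b was higher (1.11 ± 0.17) and Mbp lower (-1.23 ± 0.17), and of 5 Merkel cell and simple epithelium markers Krt18 was higher (1.48 ± 0.43, adjusted p = 0.0438), with Krt20, the Merkel cell keratin, at 0.27 ± 0.22 (0.485). The part of such cells in the results was not tested. Krt18 was not called without SG replicate 2 or any HF or IFE array (adjusted p = 0.0606 to 0.165), or with the letter block. Kit and S100b lost their calls with IFE replicate 2 left out (log2 difference 0.96 and 0.99), S100b and Mbp were not called with the mean over probe sets, and the brightest probe set ended the calls of Kit, Krt18 and Vcan and turned S100b and Mbp to -0.046 and 0.83.

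**Figure D5:**
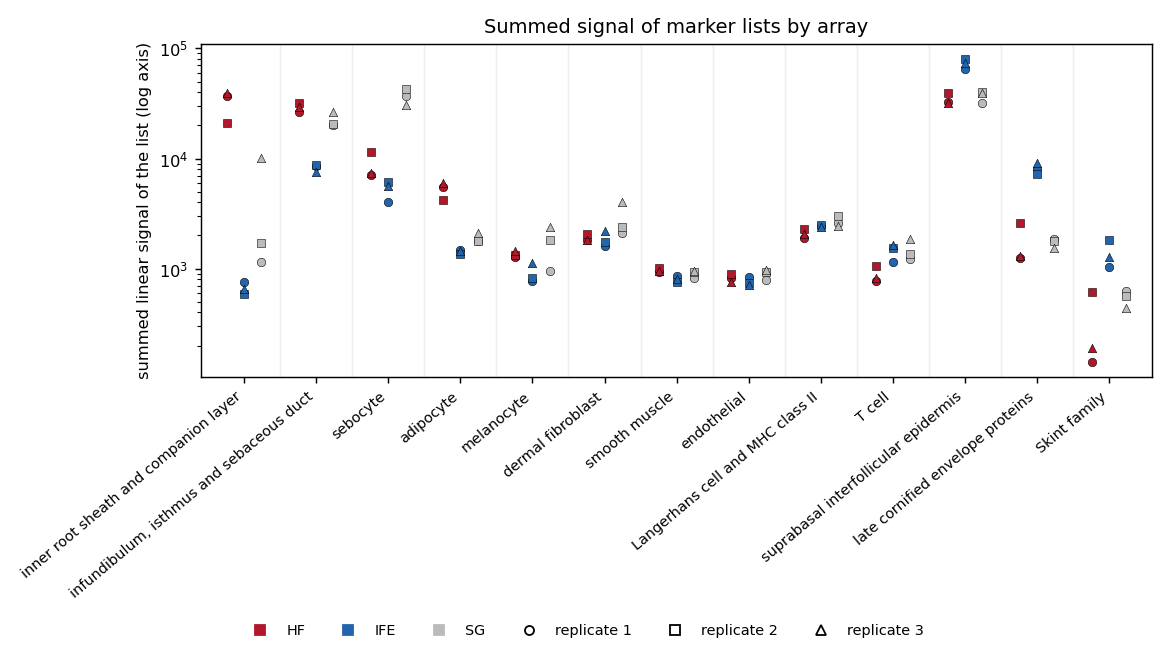
Summed linear signal (vertical log axis) of 13 marker lists on each of the 9 arrays; colours stand for the compartment and symbols for the replicate. The root sheath sum is 20890 to 39250 in HF and 585 to 759 in IFE, the late envelope sum runs the other way, and HF replicate 2 (square) lies nearer to IFE on both and on the Skint list.

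Called genes that neighbour each other moved as blocks in 6 places. Along the gene order of the RefSeq table, a run was counted where 4 or more measured genes next to each other were called in the same direction, which took in 31 genes, 16 higher and 15 lower in HF. The longest held the acidic hair keratins with their associated proteins, from Krt39 through Krtap4-13, Krtap31-1, Krt33a, Krt34, Krt31 and Krt32 to Krt35, with rises of 1.95 to 6.98. A run of 4 joined Cldn17 and Cldn8 to Krtap26-1 and Krtap13-1, where claudin genes of the tight junction lie beside keratin-associated genes (1.38 to 4.09). Another was S100a6, S100a7a, S100a8 and S100a9 (1.04 to 3.44). The lower runs were the 7 Lce1 genes (-3.44 to -1.78), the epidermal serpins Serpinb12, Serpinb13, Serpinb3d and Serpinb3c (-2.95 to -1.73) and Sprr2h, Sprr2i, Sprr2k and Sprr1b (-3.35 to -2.09). Without HF replicate 3 the calls of S100a8, S100a9, Krtap26-1, Krtap13-1 and Krt39 ended, and with them both higher runs of 4. By the brightest probe set Cldn8, Krtap13-1, S100a6 and S100a8 were not called, which ends the same runs. Serpinb3c was not called there either, which leaves fewer than 4 genes of the serpin run. Nor were Krtap31-1, which lies inside the longest run, and Lce1l, the last of the Lce1 run. Each run consists of paralogs or of 2 families side by side, and copies that share sequence are not independent measurements.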

How the data were processed

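The members and gene lists were chosen with earlier results of these data known. RNA was extracted from microdissected compartments, amplified and labelled for exon arrays, per the labels' protocols. RMA, Affymetrix Power Tools and the mouse build mm9 are named in the submitters' processing notes, without roles or versions. The deposited values were linear intensity values per probe set from 2.5 to 30815, already processed by the authors, and the array medians lay between 176 and 234. They were turned to log2 here and not normalized further. Of 154736 probe sets, 146964 had 1 gene symbol in the platform annotation, 1060 several and 6712 none, and 1754 symbols were updated through RefSeq. A gene's value was the median over its probe sets (median 8; 911 genes with 1), and levels of different genes were not compared. Limma 3.58.1 in R 4.3.3 was fitted on 9 arrays with 3 group means and eBayes, with Benjamini-Hochberg adjustment over 14507 genes; calls had to pass 0.05 and differ by 1 or more. The script was tested on simulated data. Named were the 15 largest rises and falls without overlap, up to 5 called members of each list and direction with the smallest p, the defining 3 markers of other cell types and genes of neighbouring runs (217 genes), and 47 more chosen after their values were seen. Alternatives were other scalings, gene values, blocks, filters, thresholds and arrays left out. The letter block joined arrays that share the final letter of their names, which left HF replicates 2 and 3 against IFE replicates 1 and 2. No protein sequences were used here.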

Additional observations from a re-analysis of the deposited data

Results flagged for a closer look

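Of the 7772 probe sets that the annotation gives no gene symbol (6712) or several (1060), 432 were called between HF and IFE, 364 with no symbol and 68 with several. They entered no gene value, and 5.56% of them were called, against 6.83% of the 146964 probe sets with 1 gene symbol. The count was 405 after quantile normalization and 451 with the replicate block. Probe set 5134522, with no symbol, stood at 12.75, 12.19 and 12.65 in HF and at 5.52, 5.19 and 6.88 in IFE, which made the largest difference among them (6.67 ± 0.99, adjusted p = 0.00287 in limma). No outlying sample was searched for, since groups of 3 are too small.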

How the results depend on the processing

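The 916 called genes (429 higher and 487 lower in HF) became 597 genes, 228 of them higher, when the 50% of genes with the lower mean signal were left out (7254 tested), 1750 (698 higher, 1052 lower) with no minimum difference and 214 (133 and 81) with a minimum of 2 on the log2 scale. With the letter block 257 genes were lower. The first 3 follow from the genes and sizes admitted. The letter block in effect compared only HF replicates 2 and 3 with IFE replicates 1 and 2, and the part of this in its count was not tested. Leaving out 1 array at a time gave 763 to 1146 genes, 358 to 443 higher and 375 to 734 lower, and 616 of the called genes kept their call under every one. After quantile normalization 778 of the calls were shared, and with the brightest probe set 521. With the replicate block 944 genes were called (442 higher, 502 lower), but the labels tie the numbers to no shared animal, and deviations of same-numbered HF and IFE arrays correlated at 0.225, 0.0592 and 0.0181. By the brightest probe set the log2 difference reversed for Fgf18 (-0.37), H2-Eb1 (0.0082), Mbp (0.83), Myh11 (1.47), Nectin3 (0.025), Nkd1 (-0.73), S100b (-0.046), Serpinb7 (0.88), Thy1 (0.061) and Tmprss4 (0.12), and the cause was not tested. Of 207 named called genes 116 were called under every alternative run for single genes that held the gene. A gene left out by a filter, as all 5 Skint genes were by that on mean signal, was not counted as losing its call. With the brightest probe set 66 lost the call, with the letter block 32 and without IFE replicate 2 22. Of 996 medians of lists under the alternatives 53 moved by more than the spread between replicates. The number of arrays limits the precision.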

Other observations

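Several further gene groups held called members. Of 14 S100 proteins, small calcium binders, 6 were higher in HF than in IFE and 1 was lower. S100a1 stood at 9.50, 9.36 and 9.64 in HF and at 6.60, 7.14 and 7.12 in IFE (2.55 ± 0.21, adjusted p = 2.52e-05), S100a6 at 1.29 ± 0.23 (0.0029) and S100a4 at -1.09 ± 0.28 (0.024), beside S100a7a, S100a8, S100a9 and S100b. Of 27 antimicrobial genes 1 was higher, Defb6, and 2 were lower, Defb11 (-1.29 ± 0.28, adjusted p = 0.0104) and Pglyrp4, which binds bacterial cell walls (-1.88 ± 0.23, 0.000278). This is 11.1% of the list, against 6.31% of all genes. Of 12 other envelope genes the transglutaminase Tgm5 was higher (1.07 ± 0.24) and Lor, Tgm3 and Pof1b (-1.46 ± 0.22) were lower. Of 20 junction genes 3 were higher and 2 lower, the latter Dsg1b and the nectin Nectin3 (-1.91 ± 0.30). Several of these calls ended when 1 array was left out or probe sets were joined in another way. By the brightest probe set 3 S100 genes were higher and none lower, and 3 antimicrobial genes were higher. S100a6, Tgm5, Pof1b and S100a4 were not called there, S100a6 and Tgm5 with the mean over probe sets, Tgm5 with array weights, and S100a4 with the letter block or quantile normalization, and Nectin3 turned to 0.025 with the brightest probe set. S100a4 was not called without HF replicate 1 (adjusted p = 0.0971), HF replicate 3 (0.0844), IFE replicate 2 (0.111) or IFE replicate 3 (0.0969). Tgm5 lost its call with HF replicate 2 left out (log2 difference 0.95), HF replicate 3 (0.97) or IFE replicate 1 (0.85), and Defb11 without HF replicate 3 (adjusted p = 0.0521) or IFE replicate 1 (log2 difference -0.93).

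Of 7 genes of the ectodysplasin pathway, which shapes skin appendages, none was higher and 2 were lower, the inhibitor of NF-kappa-B Nfkbia (-1.38 ± 0.27, adjusted p = 0.00552) and the receptor Tnfrsf19 (-1.09 ± 0.26, 0.0185). Tnfrsf19 lost its call after quantile normalization and with the letter block. It was not called without HF replicate 1 (adjusted p = 0.0654; log2 difference -1.08), HF replicate 3 (0.0719; -1.06), IFE replicate 2 (0.0682; -1.08) or IFE replicate 3 (0.0819; -0.97). Of 39 collagens 5.13% were called, against 6.31% of all genes. Col14a1 was higher (1.15 ± 0.20, adjusted p = 0.00282) and Col12a1 lower (-1.11 ± 0.23, 0.0071). Without IFE replicate 3 the log2 difference of Col14a1 was 0.99, below the size limit. The letter block ended both calls, and so did the brightest probe set, which called 2 other collagens in each direction. Of 19 genes of sterol and fatty acid synthesis 1 was called in each direction, the desaturase Fads1 (1.07 ± 0.20, 0.00494) and the sterol demethylase Cyp51 (-1.04 ± 0.31, 0.0493). Thus 10.5% of the list was called, against 6.31% of all genes. The counts moved widely with single arrays, with 3 lower without HF replicate 2 or IFE replicate 1 and none in either direction without IFE replicate 3. They were 2 higher and 4 lower with array weights, and 3 higher and none lower after quantile normalization or with the mean over probe sets. Fads1 was not called with the letter block and Cyp51 not with the letter block, quantile normalization, the mean over probe sets or the brightest probe set. Fads1 fell below the size limit without IFE replicate 2 (0.98) or IFE replicate 3 (0.98). Cyp51 was called without SG replicate 3 and without HF replicate 2, and not without any 1 of the other 7 arrays (adjusted p = 0.0554 to 0.192).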
